A study of Mus musculus with 6 samples.

Results

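The genes described here are 33 interferon genes of the mouse, chosen by symbol: the receptor of type I interferons, the transcription factors below it, sensors of foreign RNA, and genes that interferon switches on, Ifi44 among them. All 33 were found among the 48709 genes of the deposited expression table. They were read in embryonic hearts of C57BL6/J mice in 2 genotypes, with 3 polyA RNA-seq libraries each. Controls were littermates homozygous for floxed alleles of both Rbpms and Rbpms2, which encode RNA-binding proteins. Double knockouts carried the same floxed alleles and were in addition positive for Cre (labelled XML Cre pos). The deletion is described as specific to cardiomyocytes, the muscle cells that make the heart contract, so other heart cells keep the floxed genes. Cre was present in the knockouts alone, with no group that had Cre without floxed alleles, so Cre and the loss of the genes cannot be told apart. No source used here gives the embryonic stage. The comparison asked whether Ifi44 moved together with the interferon pathway or alone.

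Type I interferons are secreted proteins that cells release after sensing viral RNA or DNA. They bind a receptor made of Ifnar1 and Ifnar2, and the signal leads to a complex containing Stat2 and Irf9 that binds a short DNA motif, the interferon-stimulated response element (ISRE), in front of its target genes. The targets include antiviral proteins that block translation, degrade RNA or stop virus entry, and many are kept at a low level in healthy tissue. The response to interferon gamma uses another motif, the gamma-activated site (GAS).

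Values are the authors' normalised read counts, scaled per library and rounded to whole numbers. They summed to between 19770390 and 20215282 per library, so a value of 10 is a small number of reads and carries the spread of small counts. Rbpms was at 3551, 3853 and 3956 in controls 1 to 3 and at 721, 699 and 670 in double knockouts 1 to 3. Rbpms2 was at 2444, 2571 and 2716 and at 1676, 1257 and 1429 in the same order, so both targeted genes were lower in every knockout library. Control 3 and knockout 3 had a male pattern, with Xist at 6 and 20 and the Y-linked Eif2s3y at 1207 and 1569, while the other 4 libraries had a female pattern. Libraries also differed in how their values followed the GC content of genes, with a Spearman's rho from 0.13 down to -0.59 in the knockouts and from 0.22 to 0.40 in the controls. The fits were also run with a trend in GC content and transcript length removed. The summed value of 7 cardiomyocyte markers was at least 220843 in every library.

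Ifi44 (ENSMUSG00000028037, mm10 chr3:151730922-151749960, minus strand), which encodes a cytoplasmic protein induced by interferon, was at 5, 4 and 2 in controls 1 to 3. In double knockouts 1 to 3 it was at 56, 88 and 62. The groups did not overlap: the lowest knockout value was 11.2 times the highest control value. Means were 3.67 ± 1.53 (SD, n = 3) in controls and 68.7 ± 17.0 (SD, n = 3) in knockouts, an 18.7-fold difference. On the log2(value + 1) scale, which understates the change of low genes, the difference was 3.93 (SE 0.32, 95% confidence interval 3.25 to 4.61, limma adjusted p 3.16e-07). Ifi44 was known from earlier results of these data to be high, so this is a description. An exact permutation test of the 6 libraries gave a two-sided p of 0.1, the smallest that 3 against 3 allows. Among the 618 genes that were higher in knockouts, Ifi44 had the fourth highest log2 fold change. It passed the threshold in 19 of 19 alternative fits, with log2 fold changes of 3.08 to 4.14, and without both libraries of male pattern it was at 3.70 with an adjusted p of 0.0187.

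**Figure D1:**
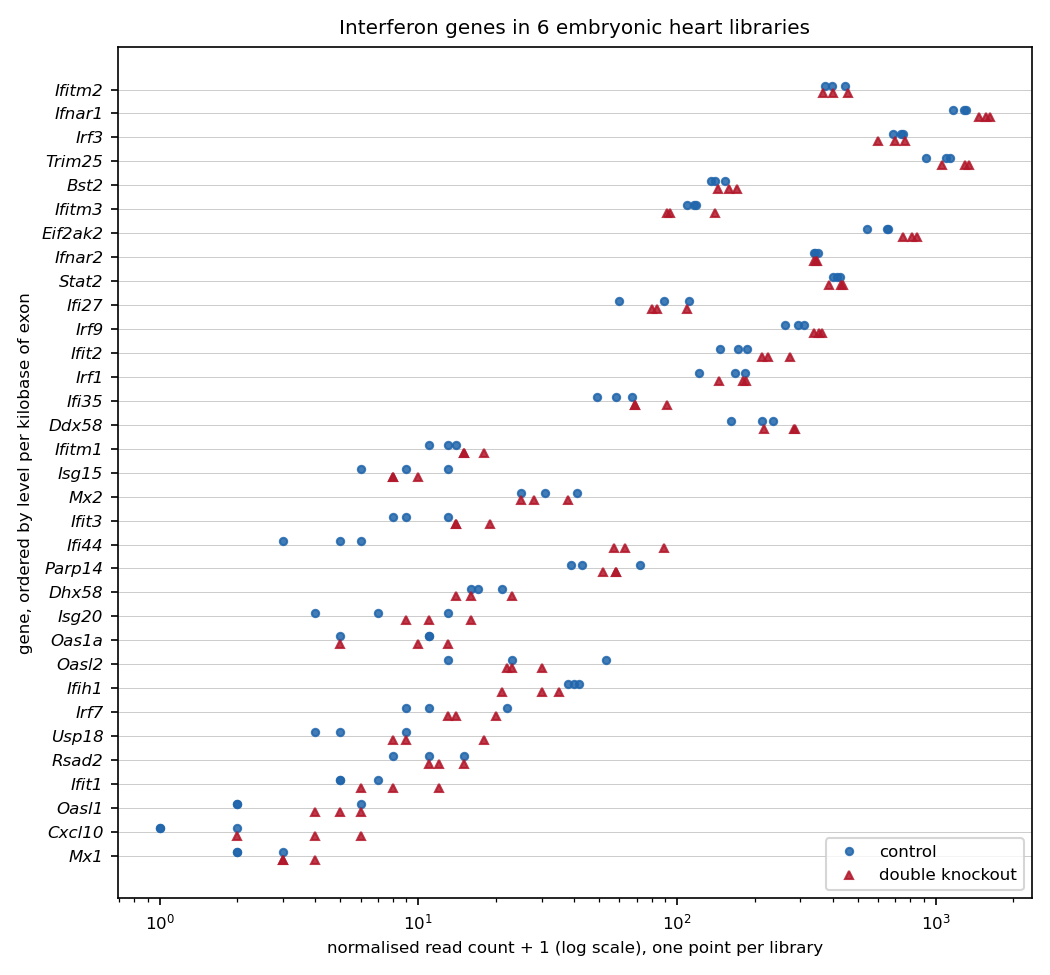
Authors' normalised read count plus 1, on a log axis, of the 33 interferon genes, ordered from top to bottom by level per kb of exon. Each point is 1 library, with circles for controls and triangles for double knockouts. Ifi44 shows the widest gap between the groups, from at most 5 in controls to at least 56 in knockouts, while most other genes have overlapping points.

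Over all 26747 genes tested, 618 (2.31%) were higher and 681 (2.55%) lower in double knockouts, 1299 (4.86%) in either direction, at a limma adjusted p under 0.05. Of the 33 interferon genes, which all passed the filter on low values, 4 were higher (12.1%): Ifi44, Eif2ak2, Ifit2 and Ifnar1. None was lower, and 29 did not pass the threshold. Without Ifi44 the count was 3 of 32 (9.38%). At an unadjusted p under 0.05, 9 members were higher and 1 was lower, 10 of 33; over all genes tested 5008 (18.7%) were at such a p, 2601 (9.72%) higher and 2407 (9%) lower. The median log2 fold change of the members was 0.23, or 0.21 without Ifi44, beside 0.02 over all genes tested, and 25 members were above 0 and 8 below, beside 51.9% of all genes above 0. Cxcl10, among these 25 and among the 9 higher, passed the filter through its knockout mean alone (3, beside 0.333 in controls). In 8 members every knockout library was above every control library, and in 1 every control was above every knockout, together 27.3%. Over all genes tested, 11.1% had every knockout above every control and 21.7% did not overlap in either direction. The log2 fold change of Ifi44 exceeded that of the next called member, Ifit2, by 3.43. Ifi44 thus changed by far more than any other called member, and most of the list did not pass the threshold with it.

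The calls other than that of Ifi44 depended on the libraries and the moderation. With limma's robust option off, 350 genes were called (1.31%), and Ifi44 was the only member among them. The number of members called was 1 without control 1, 1 without control 3, 1 without knockout 2, 1 without knockout 3, 2 without knockout 1 and 3 without control 2. Without both libraries of male pattern it was 1.

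Promoter sequences were compared to see whether members carry the motifs of the pathway. RefSeq windows of 250 bases before to 50 after the start (GRCm38.p6) were found for 27 of 33 members. The ISRE core GAAANNGAAA, searched on both strands, was in 13 of these 27 members (48.1%) and in 3.99% of 27025 genes with a window. A gene with several windows was counted once, if any of them had the motif. The GAS motif TTCNNNGAA was in 10 of 27 (37%) and in 9.55% of all genes, and the matches of both motifs may overlap. The window of Ifi44 had neither. Among the other called members, Eif2ak2 had both, and Ifit2 and Ifnar1 had the GAS motif without the ISRE core. Ifit2 did not have it in every window. A wider spacing, GAAANNNGAAA, was tried after reading the window of Ifi44 and was in 4 of 27 members (14.8%) and in 3.17% of all genes. In Ifi44 it began 55 bases before the RefSeq start. The gene model given above for Ifi44 starts further upstream, at 151749960 on the minus strand, and the match lies across that start. A match is a description and not a binding site, and no match says only that these letters are absent from this window. The stretches shown lie in front of the RefSeq starts of Ifi44 and of 3 members with the ISRE core that did not pass the threshold. Part of the Ifi44 stretch lies inside the gene model given above. Capitals mark the wider spacing in Ifi44 and the ISRE core in the others, and each is written 5′ to 3′ on the strand of its gene.
Ifi44, chr3:151749911-151750040, minus strand: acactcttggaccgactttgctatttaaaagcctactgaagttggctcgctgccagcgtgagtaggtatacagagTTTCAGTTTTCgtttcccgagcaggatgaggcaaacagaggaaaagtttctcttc
Isg15, chr4:156200857-156200916, minus strand: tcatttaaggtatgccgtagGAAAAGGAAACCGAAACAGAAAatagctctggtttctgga
Ifit1, chr19:34640765-34640824, plus strand: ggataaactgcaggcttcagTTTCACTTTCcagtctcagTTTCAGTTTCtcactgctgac
Bst2, chr8:71537563-71537622, minus strand: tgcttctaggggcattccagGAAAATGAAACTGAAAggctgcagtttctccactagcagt

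**Figure D2:**
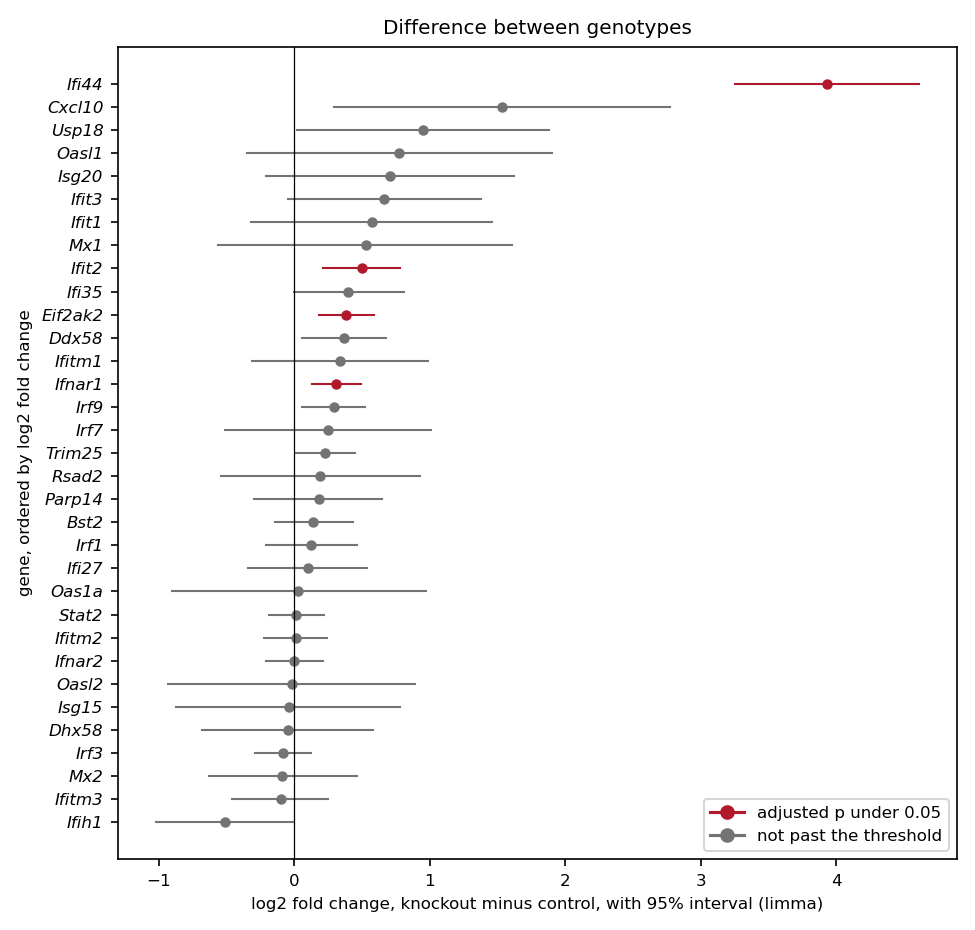
Log2 fold change (double knockout minus control) of each of the 33 members with its 95% confidence interval, on the log2(value + 1) scale, in order of fold change, with red for a limma adjusted p under 0.05 and grey for the rest. Ifi44 is at 3.93, and the other 3 called members are at 0.50 or less.

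Sensitivity to a change differed with the level of a gene. The 8 members with a mean under 10 had a median half-width of the 95% confidence interval of 0.93 on the log2 scale, the 12 between 10 and 100 had 0.64, and the 13 at 100 or above had 0.23. Of the 8 low members, 0 passed the threshold. A difference of 0.38, the size seen in Eif2ak2, is smaller than the first and the second of these half-widths. The interval of a typical member with a mean under 100 would include 0 at such a difference. The threshold on the adjusted p is stricter than the interval. Ddx58, with a mean of 231.7, had an interval of 0.06 to 0.68 and did not pass (limma adjusted p 0.174).

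Both subunits of the receptor were expressed. Ifnar1 (chr16:91485238-91507441), the subunit that carries signal into the cell with Tyk2, was at 1287, 1308 and 1163 in controls and at 1563, 1630 and 1469 in knockouts. Every knockout was above every control, with means of 1252.7 ± 78.4 and 1554.0 ± 80.9 (SD, n = 3 each), a log2 fold change of 0.31 and a limma adjusted p of 0.0439. Leaving out any of the 6 libraries lost the call (adjusted p 0.0637 to 0.268). Ifnar2, the other subunit, was at 339, 351 and 342 in controls and at 345, 346 and 338 in knockouts (log2 fold change -0.00, adjusted p 0.994). Whether the response differed between the subunits was not tested.

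Of 5 transcription factors of the pathway, 0 passed the threshold in limma, and 1 was at an unadjusted p under 0.05, beside 18.7% of all genes. Irf9, which binds DNA together with Stat2, was at 294, 310 and 261 in controls and at 364, 338 and 353 in knockouts. Its groups did not overlap (log2 fold change 0.29, adjusted p 0.146), and it passed the threshold with the GC and length trend removed (0.33, adjusted p 0.0493). Stat2 was at 426, 416 and 400 and at 438, 430 and 388, a difference of 0.01 on the log2 scale. Irf3, which is activated by sensors in the cytoplasm, was at 737, 683 and 750 in controls and at 758, 699 and 597 in knockouts, with overlapping groups. Irf7, which amplifies the response, was at 10, 21 and 8 and at 19, 13 and 12, and Irf1, a factor induced by interferon gamma, was at 183, 121 and 167 and at 180, 184 and 144.

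Of 4 RNA sensors and sensor partners, 0 passed the threshold in limma. At an unadjusted p under 0.05, 2 were higher and 1 was lower, beside 9.72% and 9% of all genes. Ddx58, which encodes the sensor RIG-I, was at 212, 234 and 161 in controls and at 216, 285 and 282 in knockouts (log2 fold change 0.37, adjusted p 0.174). Ifih1, which encodes MDA5, was at 41, 39 and 37 in controls and at 20, 29 and 34 in knockouts, the 1 member in which every control was above every knockout (log2 fold change -0.51, adjusted p 0.265). Dhx58, a regulator of both sensors, overlapped between the groups at 13 to 22 in all libraries. Trim25, the ubiquitin ligase that acts with RIG-I, was at 1098, 1132 and 915 in controls and 1305, 1054 and 1342 in knockouts (0.23, adjusted p 0.238).

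Isg15, a ubiquitin-like protein and a standard marker of the response, was low, at 8, 12 and 5 in controls and at 7, 7 and 9 in knockouts (log2 fold change -0.04, adjusted p 0.968). Usp18, which removes Isg15 from proteins and damps the receptor, was at 3, 8 and 4 and at 8, 17 and 7 (0.95, adjusted p 0.254). For both genes the groups overlapped. In limma 0 of these 2 passed the threshold, and 1 was at an unadjusted p under 0.05, beside 18.7% of all genes.

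Of 13 antiviral effectors, 2 were higher (15.4%) and 0 lower in limma, beside 2.31% and 2.55% of all genes. Their median log2 fold change was 0.38, beside 0.02 over all genes tested. At an unadjusted p under 0.05, 2 were higher and 0 lower, beside 18.7% of all genes in either direction. Eif2ak2 (chr17:78852564-78882573), the kinase PKR that halts translation when it binds double-stranded RNA, was at 648, 653 and 544 in controls and at 749, 807 and 848 in knockouts. Means were 615.0 ± 61.5 and 801.3 ± 49.7 (SD, n = 3 each), and the difference on the log2 scale was 0.38 (SE 0.10, limma adjusted p 0.0272). Leaving out control 1, control 3, knockout 2 or knockout 3 lost the call (adjusted p at most 0.215). Ifit2 (chr19:34550694-34576419), which belongs to a family that binds viral RNA, was at 171, 185 and 146 and at 212, 274 and 225. Means were 167.3 ± 19.8 and 237.0 ± 32.7, with a log2 fold change of 0.50 (SE 0.14, adjusted p 0.041). Leaving out any library but control 2 lost this call (adjusted p at most 0.248). Removing the GC and length trend did so too (0.40, adjusted p 0.0855).

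The other effectors did not pass the threshold. The Ifit genes, which lie side by side and may share reads, had low values: Ifit1 was at 4, 4 and 6 and at 11, 7 and 5, and Ifit3 at 8, 12 and 7 and at 18, 13 and 13, without overlap (0.66, adjusted p 0.302). The Oas family includes enzymes whose product activates an RNA-degrading enzyme. Oas1a, which has near-identical copies and may share reads with them, was at 4 to 10 in controls and 4 to 12 in knockouts. Its relatives also overlapped between the groups, Oasl1 at 1, 5 and 1 and at 5, 4 and 3, and Oasl2 at 12 to 52 and 21 to 29, with 52 in control 2. Rsad2, which encodes viperin, was at 7, 14 and 10 and at 10, 11 and 14 (0.19, adjusted p 0.806). The Mx genes, GTPases that trap viral particles, were at 1 to 3 for Mx1 and at 24 to 40 for Mx2, the latter listed as a polymorphic pseudogene. Isg20, an RNA exonuclease, was at 12, 3 and 6 and at 8, 15 and 10. Bst2, which tethers budding virus, was at 134, 140 and 152 and at 170, 158 and 143, and Parp14 was at 38, 71 and 42 and at 57, 51 and 57.

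The Ifitm genes, which encode small membrane proteins that block virus entry, showed 0 of 3 past the threshold in limma and 0 at an unadjusted p under 0.05. Ifitm2 was at 398, 372 and 444 in controls and at 366, 458 and 399 in knockouts. As a mean value over all libraries per kb of exon, it had the highest level of all members, at 620. Ifitm3 was at 115, 108 and 118 and at 91, 139 and 93, and Ifitm1 at 13, 12 and 10 and at 17, 14 and 14. These 3 genes are near-copies of each other, so reads may have been split among them. Among the other Ifi genes, Ifi35 was at 66, 48 and 57 and at 68, 91 and 68 without overlap (0.40, adjusted p 0.269), and Ifi27 at 88, 110 and 59 and at 79, 108 and 83. The authors' table pairs the row Ifi27 with a protein name of a close relative, so its identity is uncertain. Cxcl10, a chemokine that draws in T cells, was at 0, 1 and 0 in controls and at 3, 5 and 1 in knockouts (1.53, adjusted p 0.16). It passed the filter through the knockouts alone. In mean level over all libraries per kb of exon, Ifi44 ranked 20 of 33 at 5.9, below Bst2 at 166 and Eif2ak2 at 139 and above Mx1 at 0.484. Its mean values were 3.67 in controls and 68.7 in knockouts, so this rank describes neither genotype.

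**Figure D3:**
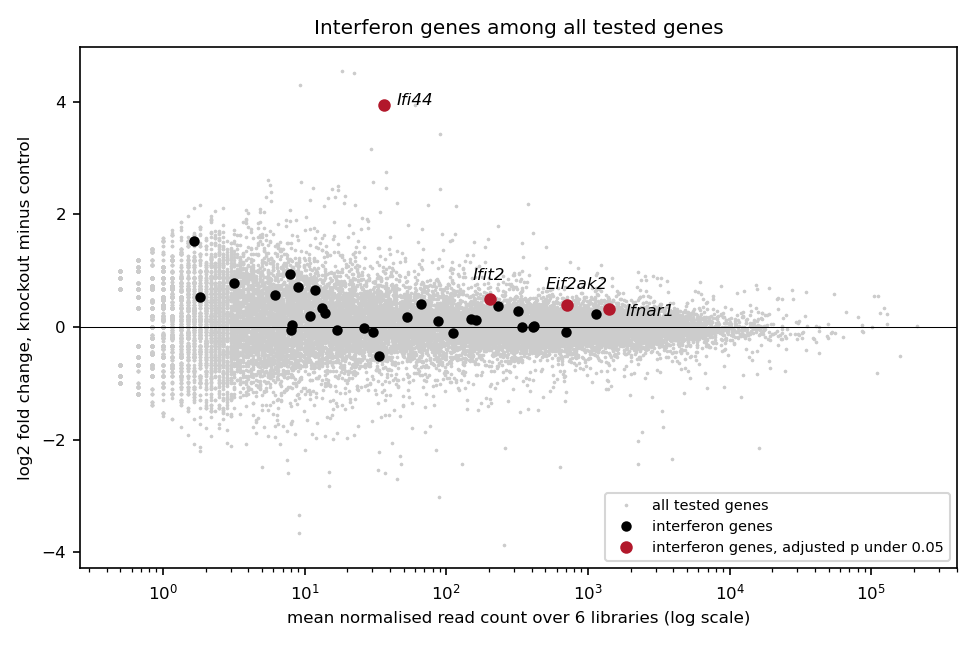
Log2 fold change (double knockout minus control) of all 26747 tested genes against the mean normalised read count over 6 libraries (log axis), with all genes in grey, the 33 members in black and the 4 called members in red. Ifi44 lies among the genes with the highest log2 fold change, and the other members range from -0.51 to 1.53.

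The rise of Ifi44 was set beside 118 other genes of the pathway, of which 102 were tested. In all, 2 were higher and 2 lower (3.92%), beside 4.86% of all genes in either direction. The median log2 fold change was 0.12, beside 0.02 over all genes tested. Interferons themselves were at or near 0 in all libraries: the summed value of 13 ligand genes was 3 to 4 per library, and 1 was above the filter. Among 15 signalling genes 1 was lower: Irf5, a transcription factor, was at 303, 262 and 284 in controls and at 195, 161 and 170 in knockouts (log2 fold change -0.69, adjusted p 0.00211). Among 15 tested sensing genes 1 was lower, Mavs, the adapter of RIG-I, at 616, 631 and 599 and at 497, 500 and 466 (-0.34, adjusted p 0.0398), a call lost with any library left out. Of 41 other interferon-induced genes 2 were higher. Samd9l, which restrains translation, was at 38, 55 and 38 and at 80, 82 and 88 (0.94, adjusted p 0.00755), a call lost without control 1, control 3 or knockout 3. Trim30a, a regulator of immune signals, was at 22, 17 and 21 and at 39, 37 and 35 (0.86, adjusted p 0.045), a call lost with any library left out. Of 16 tested genes induced by interferon gamma 0 passed the threshold in limma, and 3 were at an unadjusted p under 0.05, beside 18.7% of all genes. Gbp2b, an interferon-induced GTPase not on this list, was at 0 in every control and at 21, 19 and 16 in knockouts. It passed the threshold (limma adjusted p 9.3e-06) and is described under other observations. Of 14 antigen presentation genes 0 passed, and 2 were at an unadjusted p under 0.05.

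Ifi44l, the neighbour and relative of Ifi44 at a gap of 8.78 kb, was listed at 0 in all 3 controls and at 1, 2 and 0 in knockouts. Within 500 kb of Ifi44, 20 genes were listed, of which 14 were tested. Of these 2 were higher (14.3%), beside 2.31% of all genes tested. Dnajb4, a co-chaperone 429 kb away, was at 817, 788 and 737 in controls and at 970, 1107 and 1204 in knockouts (log2 fold change 0.48, adjusted p 0.00484). Adgrl4, a receptor of endothelial cells 186 kb away, was at 262, 228 and 211 and at 308, 476 and 372 (0.70, adjusted p 0.0071). The other 12 did not pass the threshold, and the range of the 14 was -0.83 to 1.19. Without control 3 or knockout 3, neither neighbour passed. Neither passed with limma's robust option off or without its variance trend.

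**Figure D4:**
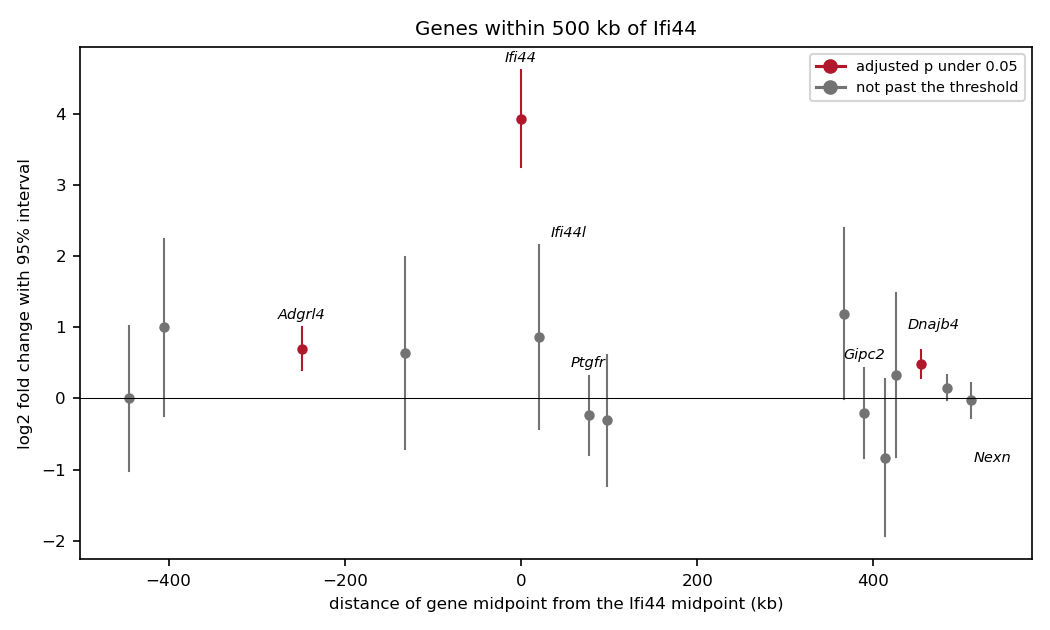
Log2 fold change (double knockout minus control) of tested genes within 500 kb of Ifi44 and of Ifi44 itself, with 95% confidence intervals, against the distance between gene midpoints in kb. Red marks a limma adjusted p under 0.05. Dnajb4 and Adgrl4 are the 2 called neighbours, and both lie far below Ifi44.

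Whole hearts hold several cell types, and fewer cells of a type and less RNA per cell cannot be told apart in bulk samples. The summed value of 14 macrophage and leukocyte markers was 656, 717 and 532 in controls and 740, 1060 and 821 in knockouts, so every knockout was above every control. Of these markers 2 were higher (14.3%), beside 2.31% of all genes. Ptprc, the leukocyte marker CD45, was at 15, 12 and 12 and at 30, 31 and 35 (log2 fold change 1.24, limma adjusted p 0.0091). Cx3cr1, a chemokine receptor, was at 64, 61 and 52 and at 79, 126 and 106 (0.78, adjusted p 0.021). The median over the 14 was 0.42, and 12 were above 0. In 4 of the 14 (28.6%) every knockout was above every control, beside 11.1% of all genes. None of the 14 was at 0 in any library. Lymphoid and plasmacytoid markers summed to 4 to 9 per library, with Ncr1 at 0 throughout and Cd3e at 0 in all but 1 library. Endothelial markers summed to 19052 to 22828 in controls and 20574 to 24511 in knockouts, with 1 of 8 higher, Emcn (0.38, adjusted p 0.0335). Leaving out control 3 or knockout 3 lost the call of Ptprc. That of Cx3cr1 was lost without control 1, control 3, knockout 2 or knockout 3, and that of Emcn with any library but knockout 1 left out. Erythroid markers summed to 12604 to 35394 and 25581 to 37127. Cardiomyocyte markers summed to 319429 to 349180 in controls and to 220843 to 282830 in knockouts, with 7 of 7 below 0. Most of this fall was in Myh6, a heavy chain of cardiac myosin and the 1 called marker, with means of 139844.3 in controls and 79505.0 in knockouts (-0.82, adjusted p 1.68e-05). The other 6 were at -0.29 to -0.02. The part of these cell types in the interferon genes was not tested. The 19 members with a mean under 100 other than Ifi44 summed to 366, 484 and 320 in controls and to 415, 464 and 408 in knockouts, with the highest sum in control 2. Counted over all 33 members, the highest value was in control 1 for 1, control 2 for 9 and control 3 for 0, and in knockouts 1, 2 and 3 for 10, 11 and 4, with ties counted in each library. Ifi44 is in this count, which was not made over all genes tested. The sum of all members without Ifi44 was 6408, 6497 and 5883 in controls and 7172, 7266 and 7029 in knockouts, so every knockout was above every control. Abundant members weigh most in this sum. Means in controls and knockouts were 1252.7 and 1554.0 for Ifnar1, 1048.3 and 1233.7 for Trim25, and 615.0 and 801.3 for Eif2ak2. Of the 32 members summed, 24 had a log2 fold change above 0 and 8 below.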

How the data were processed

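The data are 6 RNA-seq libraries of embryonic hearts, 3 per genotype. Per the labels' protocols, 500 ng of DNase-treated RNA went into a stranded polyA preparation read as single ends of 75 bases. Tools listed in the submitters' processing notes, without their roles, are featureCounts 1.5.0, STAR 2.4.2a, Trimmomatic, DESeq and DESeq2, with mm10 as the build. Sources used here do not state how reads were assigned to genes (annotation, strand, multi-mapping). The deposited values are a score: the authors' normalised read counts, rounded to whole numbers, which was read from whole numbers below 400 that are missing in 3 libraries. A count model was therefore not used.

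The filter kept 26747 genes, those whose mean reached 1 in either genotype. After a log2(value + 1) transform they were fitted with limma 3.58.1 (R 4.3.3), using its trend and robust options. Tests were two-sided, and p-values were adjusted by Benjamini-Hochberg over all of these genes, with 0.05 as the threshold. The script was tested on simulated data. Values in every library are given for Ifi44, called members and the 8 most abundant members, by rule, and for most others; of each pathway list and the neighbours of Ifi44, up to 4 called genes are named, and genes outside this rule were chosen after their values were seen. The members and lists were chosen with earlier results of these data known. Positions came from GENCODE M21 and promoter windows from RefSeq GRCm38.p6. Whether libraries are separate animals is not stated. By the sex patterns, library 3 of each genotype came from other animals than libraries 1 and 2. Whether libraries 1 and 2 came from separate animals is not known. The p-values measure only the spread between these samples, which may be technical in part. Alternatives were other moderation, weights, pseudocounts, filters, rescaling, GC and length trend removal, a replicate block, left-out libraries and a stricter threshold.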

Additional observations from a re-analysis of the deposited data

How the results depend on the processing

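Ifi44 passed the threshold in all 19 alternatives, and no result reversed. The numbers of genes, members, other pathway genes and neighbours of Ifi44 called, 1299, 4, 4 and 2 as reported, were 350, 1, 1 and 0 without the robust option, 169, 1, 0 and 0 without a variance trend, and 38, 1, 0 and 0 without both libraries numbered 3. With 1 library left out in turn they ranged from 420 to 1253, from 1 to 3, from 1 to 3 and from 0 to 2, with Ifi44 at 3.64 to 4.14 and the members' median log2 fold change at 0.19 to 0.34. Other pathway genes called were 9 with no filter on low values, 8 with the GC and length trend removed and 7 with that trend removed and a replicate block. At an adjusted p under 0.01, 1 member was called. The cause of these changes was not tested. Replicate numbers are shared between the genotypes, but deviations of same-numbered libraries correlated at 0.0517, 0.0697 and 0.3294, so the numbers were not taken to pair the samples. With a replicate block, 1355 genes, 3 members, 5 other pathway genes and 2 neighbours were called, with Ifi44 at 3.93 and the median at 0.23; Ifnar1 was the member lost. Depth limits the low members most.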

Other observations

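Gbp2b, an interferon-induced GTPase that is not on any list above and was chosen after its values were seen, was listed at 0 in all 3 controls and at 21, 19 and 16 in double knockouts (chr3:142594847-142619179, limma adjusted p 9.3e-06). No fold is given against a group at 0. It passed the threshold in 19 of 19 alternatives, with adjusted p up to 0.0355. It lies on the chromosome of Ifi44, 9.1 Mb away. Of the 67 genes tested between them 3 were higher and 0 lower (4.48%): Adgrl4, Clca3a1 and Ttll7. Over all genes tested 4.86% were called in either direction and 2.31% were higher.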
